A study of Homo sapiens with 2 samples.

Results

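The dual-specificity MAP kinase phosphatases are enzymes that remove phosphate from both the threonine and the tyrosine of the activation loop of MAP kinases, and so switch these kinases off. Some of them act in the nucleus and are made within a short time of a stimulus, others stay in the cytoplasm and act mainly on ERK, and others act mainly on the stress-activated kinases JNK and p38. Because ERK, JNK and p38 signalling raises the transcription of several of these phosphatases, they form a negative feedback loop, and in lung adenocarcinoma cells with an active receptor kinase the ERK-directed members are known as readouts of ERK signalling. The genes described here are a list of names of this family, drawn up with earlier results of these data known: DUSP1, DUSP2, DUSP4, DUSP5, DUSP6, DUSP7, DUSP8, DUSP10, DUSP14 and DUSP16. All 10 were found among 19775 genes, with 22 of the 54675 probe sets of the array.

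The cells were H2228, an established line of human lung adenocarcinoma, and their EML4-ALK variant 3 fusion is shared by both conditions. RNA from H2228 cells treated with interleukin 4 (IL4), a cytokine that signals through JAK kinases and STAT6, and from H2228 cells without treatment was measured on 1 Affymetrix array each, of the type Human Genome U133 Plus 2.0. The description of the series gives 100 ng/mL IL4 for 30 min. The sample labels also speak of transfection for 48 h with EML4-ALK plasmids, siRNAs or controls, and whether these 2 cultures were transfected is not given in the sources used here. The comparison asks which genes differ in EML4-ALK-positive cells once IL4 has been added. With 1 array per condition there is no replicate check, no test was possible and no p-value is given. A difference caused by IL4 and any other difference between the 2 cultures cannot be told apart.

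The deposited values are log2 expression values, and a log2 difference is the IL4 value minus the untreated value. Genes are called higher or lower from 1.5-fold upwards, which is 0.58 on the log2 scale. The brightest probe set, that with the highest mean of both arrays, stood for a gene, and levels are compared within a probe set only. The median of all probe sets was 5.03, and values below it were regarded as dim. For 6056 genes whose 2 brightest probe sets were both at or above that median, the difference between these probe sets had a standard deviation of 0.25, a measure of how far probe sets disagree and not of how far cultures do. The deposited values had medians of 5.04 with IL4 and 5.00 in untreated cells. The 3′ minus 5′ log2 difference of the control probe sets was 1.43 with IL4 and 1.73 in untreated cells for ACTB and 0.14 and 0.16 for GAPDH. All 10 epithelial markers were at or above the median level, among them EPCAM at 11.62 with IL4 and 11.80 in untreated cells. CDH1 was 1.68-fold higher with IL4, and ELF3 and ESRP1 were 2.55-fold and 1.65-fold lower. Of other cell types, 3 of 8 leukocyte markers, 3 of 8 fibroblast markers and 2 of 7 endothelial markers were at or above that level. The leukocyte marker PTPRC was at 2.37 with IL4 and 2.50 in untreated cells, and CD79A and CD3E had log2 differences of 0.08 and 0.03. The endothelial markers CLDN5 and TEK had 0.24 and -0.24, and no leukocyte or endothelial marker passed 1.5-fold. The fibroblast list ranged from 3.03 to 11.23 with IL4 and from 2.89 to 10.82 in untreated cells, with COL1A1 at the top (0.41) and FAP at 0.48, and the 1 member past 1.5-fold, COL3A1, was dim in both arrays. Their part in the results was not tested.

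With IL4, 4 of the 10 phosphatase genes were higher by 1.5-fold or more and 0 were lower, against 3.21% higher and 4.39% lower among all genes. The 4 were DUSP1, DUSP5, DUSP7 and DUSP14. DUSP1 and DUSP5 also passed 2-fold, which 1.11% of all genes did upwards and 0.89% downwards. In all, 8 of the 10 genes had a positive difference, as did 45.5% of all genes, and the median log2 difference was 0.49 over the 10 genes and 0 over all genes. By role, the higher genes were 2 of 4 nuclear inducible members, 1 of 2 cytoplasmic ERK-directed members, 0 of 3 members directed to JNK and p38, and DUSP14. Each gene was counted in 1 role only, and DUSP1, counted as nuclear inducible, also acts on p38 and JNK.

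Upstream sequences are shown because several of these genes were higher together, and they are given for DUSP1 and DUSP7, which were higher, for DUSP6, which differed least, and for DUSP8, which shares an element with DUSP1. RefSeq promoters were found for 8 of the 10 genes, in the build GRCh38.p14, with 2 start sites for DUSP10. DUSP4 and DUSP5 were not among them. In the 250 bases before the start, both strands were searched for the cyclic AMP response element TGACGTCA, the AP-1 element TGANTCA, the STAT element, which is TTC and GAA spaced by 3 or by 4 bases, TATAAA, and the GC box GGGCGG. The first of these is its own reverse complement and was counted once, and no motif overlapped another in these promoters. The sequences are written 5′ to 3′ on the strand of the gene, with TGACGTCA and TATAAA in capitals. The promoter of DUSP1 lies at chr5:172771196-172771445 on the minus strand, that of DUSP7 at chr3:52056572-52056821 on the minus strand, and that of DUSP6 at chr12:89352502-89352751 on the minus strand. For DUSP8, whose listed start lies inside a longer gene model, only the surroundings of its elements are given, at chr11:1572372-1572399 and chr11:1572328-1572355 on the minus strand.
DUSP1: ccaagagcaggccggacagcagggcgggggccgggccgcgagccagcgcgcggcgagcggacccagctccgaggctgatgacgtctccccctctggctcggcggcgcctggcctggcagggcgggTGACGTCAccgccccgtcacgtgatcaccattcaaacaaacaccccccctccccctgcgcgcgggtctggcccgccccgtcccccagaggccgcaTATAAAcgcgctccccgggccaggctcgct
DUSP8, first element: cgggctccgcTGACGTCAcctgcccccg
DUSP8, second element: tggctgcaggTGACGTCAggggcttttt
DUSP7: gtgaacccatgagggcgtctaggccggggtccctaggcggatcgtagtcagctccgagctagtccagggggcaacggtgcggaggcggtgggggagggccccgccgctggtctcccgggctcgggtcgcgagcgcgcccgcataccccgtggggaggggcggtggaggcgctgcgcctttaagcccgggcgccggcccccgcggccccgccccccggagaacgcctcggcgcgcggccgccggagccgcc
DUSP6: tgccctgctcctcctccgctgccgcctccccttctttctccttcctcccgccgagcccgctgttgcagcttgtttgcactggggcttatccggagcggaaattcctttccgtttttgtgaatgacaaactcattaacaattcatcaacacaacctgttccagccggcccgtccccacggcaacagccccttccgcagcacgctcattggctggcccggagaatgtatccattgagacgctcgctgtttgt
The element TGACGTCA was found in DUSP1, from -125 to -118 relative to the start, and in DUSP8, from -118 to -111 and from -74 to -67. It was found in 1.65% of 35116 RefSeq promoters of the same length. TATAAA was found in DUSP1 alone among the 8 genes, from -30 to -25, and in 10.7% of all promoters. The AP-1 element was found in 0 of the 8 genes and in 6.57% of all promoters. The STAT element was found in 0 of the 8 genes with either spacing, and in 6.57% of all promoters with a spacing of 3 and 5.38% with a spacing of 4. The promoter of DUSP6, with 57.2% G and C, was poorer in these bases than those of DUSP7 with 78.4% and DUSP1 with 74.4%. These genes were chosen by their differences, and the share is not given for the other members, among them DUSP14, which was also higher. The GC box was found in 7 of the 8 genes, all but DUSP6, and in 42.6% of all promoters. Its carriers included DUSP2, DUSP8, DUSP10 and DUSP16, which stayed below 1.5-fold on their brightest probe sets. These matches describe letters in short windows and show no binding.

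DUSP1 encodes a nuclear phosphatase of p38, JNK and ERK and is a classical immediate early gene. Its brightest probe set, 201041_s_at, was at 9.87 with IL4 and at 7.44 in untreated cells on the log2 scale. This is a difference of 2.43, or 5.38-fold, and 17 of the 19775 genes had a larger one. The further DUSP1 probe sets were less bright and moved less. 201044_x_at was at 5.91 with IL4 and 5.10 in untreated cells, a log2 difference of 0.81. 226578_s_at was at 5.70 with IL4 and 5.57 in untreated cells, a log2 difference of 0.13. All 3 were thus above the untreated value, but the size of the DUSP1 difference rests on the first one, and the mean over the 3 probe sets was 1.12. None of the DUSP1 probe sets is specific by its design name, since the suffix _s_at marks probes shared by several transcripts and _x_at marks probes that may bind unrelated sequences.

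DUSP5, a nuclear phosphatase that acts on ERK, had the next largest difference. Its only probe set was at 9.21 with IL4 and 7.79 in untreated cells, which is 2.67-fold higher, and 96 genes had a larger log2 difference than its 1.42. No further probe set was available to set beside it.
DUSP4 and DUSP2, the other nuclear inducible members, differed little. DUSP4, which acts on ERK and JNK, was at 9.23 with IL4 and 9.46 in untreated cells, a log2 difference of -0.23, and its further probe sets had differences of -0.14 and 0.02. DUSP2, best known from activated leukocytes, was at 5.45 with IL4 and 5.24 in untreated cells, a log2 difference of 0.21 close to the dim range. Both differences were smaller than the standard deviation of 0.25 between probe sets. The nuclear inducible members therefore spanned log2 differences from -0.23 to 2.43, the widest range of the roles with more than 1 gene.

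The cytoplasmic ERK-directed phosphatases DUSP6 and DUSP7 differed from each other. DUSP7 was at 8.22 with IL4 and 7.29 in untreated cells, a log2 difference of 0.92 or 1.90-fold, and 262 genes had a larger one. Its second probe set, 214793_at, was at 5.55 with IL4 and 4.99 in untreated cells, a difference of 0.56 just short of 1.5-fold. DUSP6, the main cytoplasmic brake on ERK and itself a transcriptional target of ERK signalling, was at 8.85 with IL4 and 8.85 in untreated cells. Its 3 probe sets, all well above the median of all probe sets, had log2 differences of 0.002, -0.05 and 0.09. DUSP4 and DUSP6 together gave 6 bright probe sets whose differences lay between -0.23 and 0.09, whereas DUSP5 and DUSP7, which also act on ERK, were 2.67-fold and 1.90-fold higher.

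On their brightest probe sets, the members grouped as directed to JNK and p38 stayed below 1.5-fold. DUSP1, which also acts on these kinases, was counted with the nuclear inducible members. DUSP16, which acts on JNK, was at 7.03 with IL4 and 6.47 in untreated cells, a log2 difference of 0.56 or 1.47-fold, just under the level. Its further probe sets disagreed in sign. 1555399_a_at was at 6.29 with IL4 and 6.38 in untreated cells, a difference of -0.09. The other 2 were dim in both arrays, with differences of 0.46 and 0.48. DUSP8, the gene with paired TGACGTCA elements, was at 7.01 with IL4 and 6.59 in untreated cells on 238594_x_at, a difference of 0.42. Its less bright probe set, 206374_at, was at 5.31 with IL4 and 4.52 in untreated cells, a difference of 0.79 that passed 1.5-fold from a dim untreated value. DUSP10, a phosphatase of p38 and JNK, was at 7.96 with IL4 and 8.08 in untreated cells, a difference of -0.12, and its second probe set had -0.03. DUSP14, a small phosphatase that lacks the kinase-binding domain of the other members, was at 9.19 with IL4 and 8.49 in untreated cells on its only probe set, a difference of 0.70 or 1.62-fold.
Counted by probe set, 6 of the 22 passed 1.5-fold upwards and 0 downwards, against 3.34% and 3.26% of all probe sets. Of the 7 genes with more than 1 probe set, DUSP1, DUSP7, DUSP8 and DUSP10 had 1 sign throughout, and DUSP4, DUSP6 and DUSP16 had both.

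**Figure D1:**
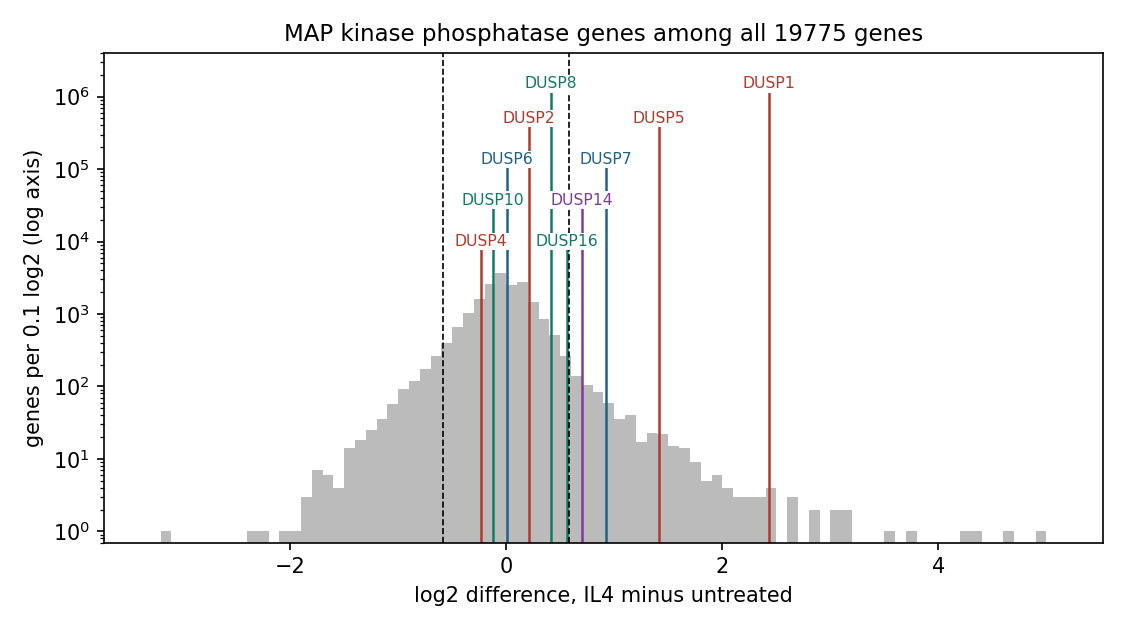
Number of genes (y axis, log scale) by log2 difference between IL4-treated and untreated cells (x axis) in steps of 0.1, with the 10 phosphatase genes as coloured lines (red, nuclear inducible; blue, cytoplasmic ERK-directed; green, directed to JNK and p38; purple, DUSP14) whose heights only separate the labels. Dashed lines mark 1.5-fold; DUSP1 at 2.43 and DUSP5 at 1.42 lie in the right tail, and DUSP4 at -0.23 is the lowest of the 10.

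Related phosphatases were set beside these genes. None of 16 other dual-specificity phosphatase genes, among them DUSP3, DUSP22 and DUSP23, passed 1.5-fold (0 in either direction). On their brightest probe sets, the log2 differences ran from -0.28 to 0.30 around a median of 0.01. The outermost were DUSP18 at 0.30 and STYX, a catalytically inactive relative, at -0.28. Averaged over probe sets, DUSP3 had 0.42, STYX -0.36 and DUSP19 -0.32, and again 0 passed 1.5-fold. Of 8 other phosphatases that act on MAP kinases, 0 were higher and 1 was lower. This was PPM1B, a serine/threonine phosphatase, at 8.12 with IL4 and 8.82 in untreated cells, which is 1.63-fold lower. The 16 included DUSP9, which is itself a MAP kinase phosphatase but was not in the list of 10. DUSP9 was at 5.15 with IL4 and 5.34 in untreated cells, a difference of -0.19. The 2 lists therefore do not fully separate MAP kinase phosphatases from other enzymes. Counts of 4 of 10 and 0 of 16 come from 2 arrays, and their difference was not tested.

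The kinases that these phosphatases act on, and the kinases above and below them, differed little as mRNA. The ERK cascade, with 12 genes analysed here, held 0 higher genes and 1 lower gene, and its median log2 difference was -0.16. The lower one was the scaffold gene KSR1, at 6.19 with IL4 and 6.83 in untreated cells, a difference of -0.63. The mean over the 4 KSR1 probe sets was only -0.14, and 3 of the 4 were lower with IL4. MAPK3, which encodes ERK1, had a difference of -0.18 and MAP2K1, which encodes MEK1, one of 0.02. The JNK and p38 cascades, with 22 genes, likewise held 0 higher genes and 1 lower gene, around a median of 0.004. The lower one was MAP2K6, a kinase that activates p38, at 5.62 with IL4 and 6.38 in untreated cells, a difference of -0.77, and its second probe set had the opposite sign. Averaged over probe sets, MAP2K6 had -0.37, and the 1 lower gene was MAP3K8 at -0.64. The brightest MAP3K8 probe set was dim, at 4.69 in both arrays. The JNK genes MAPK8 and MAPK9 had differences of 0.25 and -0.29. Of 10 genes of kinases activated by MAP kinases, 0 passed 1.5-fold in either direction, with a median of 0.06. The outermost were MAPKAPK2, the kinase activated by p38, at 0.49 and RPS6KA5 at -0.39. These values are mRNA levels and do not show the phosphorylation of any kinase.

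Genes known as outputs of ERK signalling or as its feedback inhibitors were divided. There were 4 higher and 3 lower genes among 16, and the median log2 difference was 0.23. The higher genes were the receptor kinase inhibitor SPRY2 at 1.62, the AP-1 gene FOSL1 at 1.09, ERRFI1, an inhibitor of the EGF receptor, at 1.06 and the ephrin receptor gene EPHA2 at 0.79. The lower genes were SPRY1, a relative of SPRY2, at -1.81, and the ETS family genes ETV1 and ETV5 at -0.80 and -0.62. Averaged over probe sets, SPRY1, ETV1 and ETV5 had -1.11, -0.56 and -0.49, and the ephrin receptor gene EPHA4 had 0.76. The counts were then 5 higher and 1 lower, so the division depends on the probe sets used. EGR1, an immediate early target of ERK, was at 8.09 with IL4 and 8.29 in untreated cells, a difference of -0.21, and IER3 and PHLDA1 had -0.15 and 0.05. By size alone, DUSP1, DUSP5, SPRY2, FOSL1 and ERRFI1 were more than 2-fold higher. DUSP4, DUSP6, EGR1, IER3, PHLDA1, ETV4 (-0.07) and SPRED1 (0.09) were within 0.25 of 0. Between them lay EPHA2 and, under 1.5-fold, CCND1 (0.43), EPHA4 (0.42), SPRY4 (0.36) and SPRED2 (0.36). With 1 difference per gene, this sorting cannot show that any of these genes behave alike.
Genes of transcription factors known to act at DUSP promoters were higher in 4 and lower in 0 of 10 cases, around a median of 0.25. ETS1, which is known to act at the DUSP6 promoter, was at 11.29 with IL4 and 9.33 in untreated cells, a difference of 1.96 shared in sign by its 3 probe sets. The NF-kB subunit genes NFKB1 and RELA had differences of 1.49 and 0.68, and SRF, which acts with ternary complex factors on immediate early genes, had 1.32. The mean over the 2 SRF probe sets, which shared the sign, was smaller at 0.79. CREB1, whose product binds the element TGACGTCA, had a difference of 0.18. In the same list, ATF2 and CREM went the other way, at -0.58 and -0.32. Averaged over probe sets, CREB1, ATF2 and CREM had 0.06, -0.21 and -0.18.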

How the data were processed

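Total RNA of H2228 cells with IL4 and without treatment was hybridized to 1 array per condition. The values deposited by the authors are on a log2 scale, 1 per probe set and array. RMA, listed by the submitters with no version, corrects background, equalizes the arrays and summarizes probes; GCOS 1.4 was used on the scanned data according to the methods. These steps were not repeated here, and an aligner or build plays no part in them.

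Of 41097 probe sets annotated to 1 gene, 41043 were brought to the current symbol through their gene number in RefSeq (GRCh38.p14). Another 1801 with several genes were not used for genes. The phosphatase genes, the gene lists and the rule for named genes were chosen with earlier results of these data known. The rule takes all 10 members with every probe set and, from each other list, the 4 highest and the 4 lowest genes past 1.5-fold whose value reached the median of all probe sets in an array, or else the 2 largest differences. DUSP3, DUSP9, DUSP22, DUSP23, MAPK3, MAP2K1, MAP3K8, MAPK8, MAPK9, EGR1, IER3, PHLDA1, ETV4, SPRED1, CREB1, COL3A1, EPCAM and PTPRC were named beyond it, after their values were seen. So were ATF2, CREM, CCND1, DUSP19, EPHA4, SPRED2 and SPRY4. Not every listed gene is analysed here. Counting was tested on simulated data. Alternatives were a 2-fold level, the mean over or any of a gene's probe sets, probe sets without the suffixes _s_at and _x_at, a minimum mean level at the median or 75th percentile, a loess correction (fraction 0.3), quantile normalization, centring on the median, and counting probe sets. The number of arrays limits the precision. Calculations used Python 3.11.15, numpy 2.4.6, pandas 2.3.3, statsmodels 0.14.6 and matplotlib 3.10.9.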

Additional observations from a re-analysis of the deposited data

How the results depend on the processing

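Under the alternatives tried, 4 to 6 members or probe sets passed 1.5-fold upwards and 0 downwards, except that 2 members passed the 2-fold level. Averaged over its probe sets, DUSP1 had a log2 difference of 1.12, and without _s_at and _x_at probe sets DUSP1 had no value and DUSP8 had 0.79. Averaged over probe sets, the count of lower genes was 0 in the ERK cascade, 1 among ERK output and feedback genes and 0 among other MAP kinase phosphatases. In the JNK and p38 cascades that count stayed at 1, but the gene was MAP3K8 in place of MAP2K6. At or above the 75th percentile it was 0 in the ERK cascade and 0 in the JNK and p38 cascades. Without _s_at and _x_at probe sets it was 0 in the JNK and p38 cascades, and 2 transcription factor genes were higher, with a median of -0.035. Of the other values, 166 counts and list medians and 47 differences of single members stayed within 1.5 times the count or within 0.25 on the log2 scale, and no member past 1.5-fold turned its sign. Part of this agreement was fixed in advance and is no check. Centring shifted no value, averaging cannot change a gene with 1 probe set, and a minimum at the median left out no member. Single genes of the other lists were not followed under each alternative. No paired analysis was possible because each condition has 1 array, and no array could be left out. The cause of these changes was not tested.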
